A study of Mus musculus with 3 samples.

Results

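The genes described here are 9 markers of patrolling monocytes, namely Nr4a1, Ace, Treml4, Spn, Eno3, Pglyrp1, Cd300e, Pou2f2 and Cd9, read in dendritic cells (DCs) of the mouse spleen. They were taken by name: each had exactly 1 probe set annotated with its symbol alone, which gives 9 of 19938 genes and 9 of 21789 probe sets with a single gene. All 9 were above background on all 3 arrays. The study measured sorted CD11c(hi) CD11b+ spleen cells on Affymetrix GeneChip 1.0 ST arrays for mouse genes, whose probes lie along the whole transcript, and it asks how Notch signalling through RBPJ shapes these cells. Control cells came from RBPJflox/flox littermates without Cre and were sorted as an Esam(hi) GFP(lo) and an Esam(lo) GFP(hi) subset. The third population, labelled RBPJnull, came from RBPJflox/flox mice with CD11c-Cre, whose cells were all Esam(lo) GFP(hi). Every mouse carried the Cx3cr1-GFP reporter, and each array held RNA from the pooled spleens of 2 to 3 mice. CD11c-Cre acts in cells that express CD11c, which is not a feature of DCs alone.

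Each group had 1 array, so no replicate error, test or p-value is given, and every statement below compares arrays rather than conditions. Log2 expression values are printed as deposited. A gene was counted as 2-fold apart (called) when its log2 values differed by at least 1 and the brighter array was above background, set at the 95th percentile of 1190 receptor genes for smell and pheromones (7.16 for control Esam(hi), 6.75 for control Esam(lo) and 6.87 for RBPJnull). Where 3 values stand together below, they follow this order of arrays. Rbpj itself read 9.85, 9.85 and 10.04. Which exons its probes cover is not known here, so this value does not check the label, and directions drawn from the RBPJnull array rest on that label. The sorted phenotype was visible in Esam (7.79, 6.57 and 6.12, with both Esam(lo) values below background) and in Cx3cr1 (8.32, 9.58 and 9.58). All 13 genes of a list of classical DC markers were above background on all 3 arrays.

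Patrolling, or nonclassical, monocytes are the Ly6C-low monocytes that crawl along the inner wall of blood vessels and survey the endothelium. Their formation depends on the orphan nuclear receptor Nr4a1, and they carry high levels of the fractalkine receptor Cx3cr1. CD43, the product of Spn, is used to stain them, and Ace, Treml4, Pglyrp1, Eno3, Cd300e, Pou2f2 and Cd9 are found among genes that separate them from classical, Ly6C-high monocytes. None of the 9 is restricted to these monocytes: Spn is made by T cells, Pglyrp1 by neutrophils, Pou2f2 by B cells and Cd9 by platelets, among others.

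Only some of the 9 genes were 2-fold higher in Esam(lo) cells. As deposited, 7 had higher values on the control Esam(lo) than on the control Esam(hi) array, 1 was lower and 1 tied. Of the 7, Nr4a1 was higher by 0.0023 alone. The median of this difference over all genes was 0.28. On the control Esam(lo) array 4 of 9, Ace, Treml4, Cd300e and Spn, were at least 2-fold above the control Esam(hi) array, and none was 2-fold below it. Among all 9489 genes tested in that comparison, 11.2% were called higher and 0.79% lower (1067 and 75 genes, or 488 and 180 with the level trend described below removed, and 465 and 249 after quantile normalization). On the RBPJnull array Treml4 read almost the same as on the control Esam(lo) array, Spn was slightly lower, and Ace and Cd300e lay between the control arrays. Nr4a1 and Cd9 had practically equal values on all 3 arrays.

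**Figure D1:**
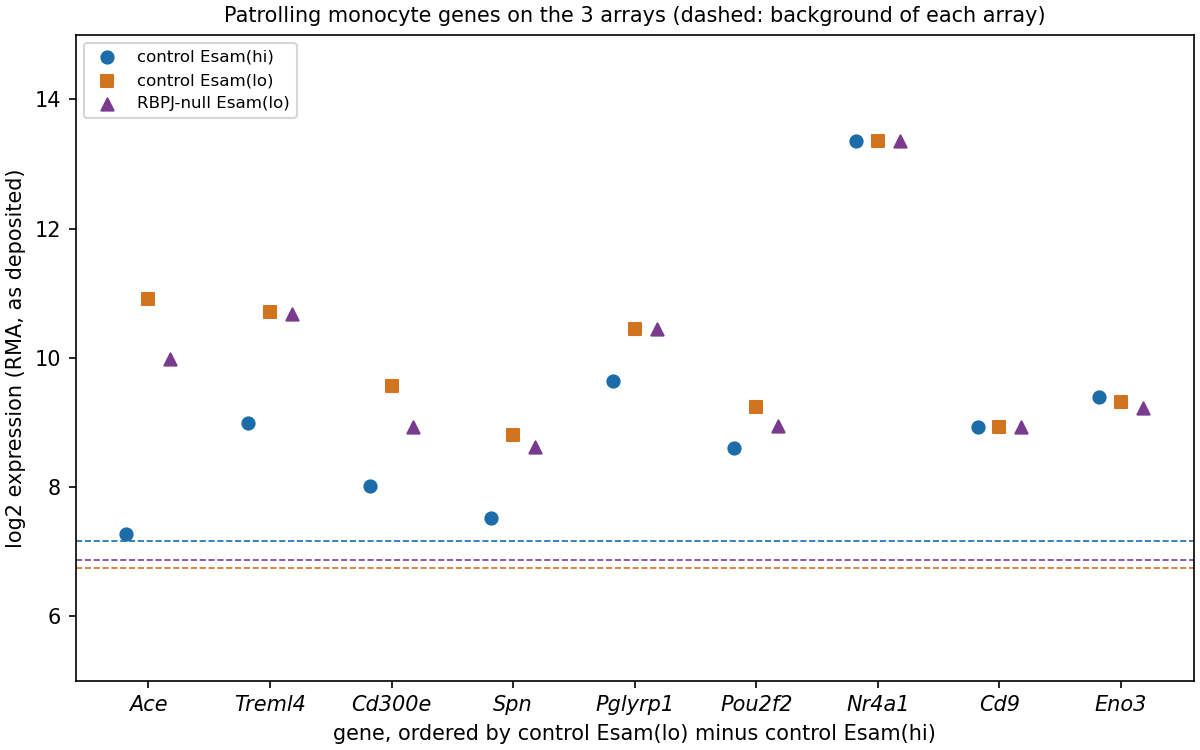
Deposited log2 expression (y axis) of the 9 patrolling monocyte genes (x axis, ordered by their difference between the control arrays) for 2 control arrays (Esam(hi) and Esam(lo) cells) and the RBPJnull Esam(lo) array, 1 point per array and gene, with each array's background as a dashed line. Ace spans 7.27 to 10.91, whereas Nr4a1 stays at 13.36 on all 3 arrays; heights of different genes come from different probes and are not to be compared.

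The sequences just before the start sites of the 4 genes called higher are shown because these genes were higher together on the control Esam(lo) array. They are the 250 bases before the start in RefSeq (build GRCm38.p6), 5′ to 3′ on the gene's own strand. Ace lies at chr11:105967698-105967947, plus strand. Treml4 lies at chr17:48264045-48264294, plus strand. Cd300e lies at chr11:115062040-115062289, minus strand. Spn lies at chr7:127137824-127138073, minus strand. Capitals mark matches to the motifs named after the sequences.
Ace: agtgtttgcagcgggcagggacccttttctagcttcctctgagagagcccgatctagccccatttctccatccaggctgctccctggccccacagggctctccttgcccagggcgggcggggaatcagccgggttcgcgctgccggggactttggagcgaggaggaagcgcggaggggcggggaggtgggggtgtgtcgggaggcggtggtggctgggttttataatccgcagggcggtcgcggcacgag
Treml4: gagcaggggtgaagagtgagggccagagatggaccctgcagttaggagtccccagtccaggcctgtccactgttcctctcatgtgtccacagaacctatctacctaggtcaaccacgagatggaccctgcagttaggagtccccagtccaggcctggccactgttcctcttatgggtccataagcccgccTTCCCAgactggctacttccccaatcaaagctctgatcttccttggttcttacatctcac
Cd300e: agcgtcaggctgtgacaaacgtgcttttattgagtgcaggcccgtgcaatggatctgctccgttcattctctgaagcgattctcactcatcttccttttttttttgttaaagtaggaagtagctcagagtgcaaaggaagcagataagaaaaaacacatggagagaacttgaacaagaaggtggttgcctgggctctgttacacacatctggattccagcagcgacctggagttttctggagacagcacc
Spn: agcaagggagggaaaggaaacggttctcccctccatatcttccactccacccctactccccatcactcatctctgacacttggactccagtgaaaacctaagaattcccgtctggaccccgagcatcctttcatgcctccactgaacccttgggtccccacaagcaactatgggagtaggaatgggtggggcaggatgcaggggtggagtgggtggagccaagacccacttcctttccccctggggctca

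Motifs of 3 factors were searched on both strands: the NBRE element read by Nr4a1 (AAAGGTCA), the octamer read by the product of Pou2f2 (ATGCAAAT) and the RBPJ core (TGGGAA). No overlaps between these motifs occurred in the windows of the 9 genes. Their windows, 10 in RefSeq because Ace has 2 start sites, held no NBRE and no octamer, which were present in 1.34% and 1.60% of 32851 windows of the same length. The RBPJ core, present in 21.6% of all windows, was found in 3 of the 10. One is the capitalised stretch in Treml4, from 60 to 55 bases before the start on the minus strand. The others lie in Eno3 and Cd9, neither of which differed by 2-fold between any of the arrays. A match is a run of letters, not a site of binding.

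Nr4a1, the nuclear receptor that patrolling monocytes require, read 13.36 on each of the 3 arrays. The control arrays differed by 0.0023, and the values of control Esam(lo) and RBPJnull cells were exactly equal. RMA condenses probes by median polish, which gave exact ties on at least a pair of arrays in 57.1% of genes, so equal values are no evidence of equal expression. Its relatives Nr4a2 (12.92, 12.73 and 12.95) and Nr4a3 (13.03, 12.23 and 12.46) had their lowest values in control Esam(lo) cells, neither by 2-fold. Nr4a3 differed by -0.79 between the control arrays, and by -1.11, past 2-fold, with the level trend removed.

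Nr4a1 is also an immediate early gene, transcribed within a short time of stimulation or cell handling, so 12 other immediate early genes were read beside it. None was 2-fold apart in any of the comparisons of the deposited values. Their median difference between the control arrays was 0.15, against 0.28 over all genes, and it turned to -0.19 with the trend removed, against 0.05. Dusp1 read 13.07, 13.58 and 13.54 and Fosb 12.64, 12.80 and 12.71, both highest in control Esam(lo) cells as deposited. The control difference of Fosb (0.16) turned negative when the trend was removed (-0.15) or the arrays were quantile normalized (-0.17), and that of Dusp1 did not (0.22 and 0.05). Egr3, named after its values were seen, was lowest there (10.77, 9.93 and 10.59), and was 2-fold lower than in Esam(hi) cells with the trend removed (-1.25). Egr2, named likewise, was also lowest there (11.38, 11.10 and 11.81). On the RBPJnull array Egr2 was 0.71 and Egr3 0.65 above the control Esam(lo) array. Of the 12 genes, 4 were higher and 8 lower in that comparison, with a median of -0.08. What part handling had in the Nr4a1 values was not tested.

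Pou2f2, which encodes the octamer-binding factor Oct-2, read 8.61 in control Esam(hi), 9.24 in control Esam(lo) and 8.94 in RBPJnull cells. It was thus highest in control Esam(lo) cells and intermediate on the RBPJnull array, with differences of 0.63 and -0.29 that stayed short of 2-fold. The RBPJnull array was 0.33 above the Esam(hi) array, a sign that reversed under trend removal (-0.09) and quantile normalization (-0.17). B cells are another source of this gene. Of the B cell list, 6 of 9 genes on the array, among them Ms4a1, Pax5 and Cd79a, were below background on all 3 arrays, and the summed unlogged level of the 9 was 2106, 2013 and 1838. The other 3 differed in direction. Cd79b was above background on all 3 arrays (8.20, 9.12 and 9.29) and was called higher in RBPJnull than in Esam(hi) cells (1.08), though not with the trend removed (0.67). Cd22 (10.37, 10.10 and 9.73) and Blk (7.59, 6.60 and 6.60) were highest in Esam(hi) cells. Both Esam(lo) values of Blk were below background. With the trend removed, Cd22 was past 2-fold lower on the RBPJnull than on the Esam(hi) array (-1.08). The part of B cells in the Pou2f2 values was not tested. The coactivator gene Pou2af1 read 7.49, 7.08 and 6.85, and Pou2f3 was below background throughout.

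Ace, the angiotensin-converting enzyme, a membrane-bound peptidase, read 7.27 in control Esam(hi), 10.91 in control Esam(lo) and 9.98 in RBPJnull cells. The Esam(hi) value lay just above background (7.16), the control Esam(lo) array was 12.5-fold higher, and the RBPJnull array was 6.53-fold higher. The control difference of 3.64 was exceeded by 4 of the 9489 genes tested, counting deposited differences whether or not the dimmer array was above background. Of the other genes of angiotensin metabolism on the array, Agt, Agtr1a, Agtr2, Mas1, Enpep and Mme, 6 of 6 were below background on all 3 arrays.

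Treml4, a receptor of the TREM family that binds dying cells, read 8.996 in control Esam(hi), 10.70 in control Esam(lo) and 10.68 in RBPJnull cells. Both Esam(lo) arrays were high and differed from each other by -0.03, while the Esam(hi) array was 3.26-fold below the control Esam(lo) array. Of the 6 TREM genes on the array, Trem1 (7.01, 9.27 and 9.15) and Trem3 (7.55, 9.25 and 9.30), both activating receptors of myeloid cells, were called higher in Esam(lo) cells too. Trem2 (7.80, 7.42 and 7.42) and Treml1 (7.70, 7.10 and 7.001), the latter a platelet gene, had their highest value on the Esam(hi) array, and Treml2 was tied at 7.84.

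Cd300e, an activating receptor of monocytes, read 8.02 in control Esam(hi), 9.56 in control Esam(lo) and 8.93 in RBPJnull cells. The control Esam(lo) value exceeded the Esam(hi) value 2.91-fold, and the RBPJnull value fell between them, 1.55-fold below the control Esam(lo) value. Among the 8 genes of the Cd300 family, the only other one called as deposited was Cd300ld (8.33, 9.39 and 9.499). Cd300ld did not show this intermediate level. With the trend removed Cd300ld was no longer 2-fold apart (0.64), and Cd300e was (1.13). Cd300lf, an inhibitory member, had its highest value on the Esam(hi) array (9.12, 8.65 and 8.28).

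Spn, which encodes the sialylated surface glycoprotein CD43, read 7.53 in control Esam(hi), 8.80 in control Esam(lo) and 8.62 in RBPJnull cells. Both Esam(lo) arrays were above the Esam(hi) array, by 2.42-fold and 2.13-fold. Spn is also a T cell gene. Of 7 T cell markers on the array, Cd3d, Cd3g and Cd28 were below background on all 3 arrays. The other 4 were above it on all 3 arrays. Cd3e read 7.65, 7.64 and 7.65 and Lat 7.24, 7.21 and 7.21. Cd5 read 8.80, 8.77 and 8.77 and Bcl11b 7.58, 7.07 and 7.07. None of the 7 was 2-fold apart between the control arrays, and their summed unlogged level was 1138, 1069 and 1071. The part of T cells in the Spn values was not tested.

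Cd9, a tetraspanin that organises membrane partners such as integrins, read 8.93 on all 3 arrays, an exact tie. Among 12 tetraspanin genes above background on a control array, Cd9 included, Cd37 (9.56, 10.72 and 10.65), Cd81 (9.06, 10.53 and 10.22) and Tspan31 (9.19, 10.49 and 10.52) were called higher in control Esam(lo) cells and none lower. Cd81 alone of these was still 2-fold apart with the trend removed (1.04), and not with quantile normalization (0.97).

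The last members are a secreted protein and an enzyme. Pglyrp1, an antibacterial protein that binds peptidoglycan, read 9.64 in control Esam(hi), 10.45 in control Esam(lo) and 10.44 in RBPJnull cells. Both Esam(lo) arrays were higher by close to the same amount, 1.75-fold and 1.74-fold, short of the 2-fold rule. Eno3, the muscle form of the glycolytic enzyme enolase, read 9.39, 9.31 and 9.22 in that order. It was the only one of the 9 with its highest value in Esam(hi) cells, by 1.06-fold over the control Esam(lo) array, and its value turned to the other side (0.04) with each array centred on its median. Eno2 and Eno4 were below background on all 3 arrays, as were Pglyrp3 and Pglyrp4.

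Differences between the control arrays went with level: over all genes the median control difference, Esam(lo) minus Esam(hi), was 0.28, and fitting the differences against mean level and subtracting the fit (the level trend) took it to 0.05. Against that shift, the median of the 9 genes was 0.81 as deposited and 0.38 with the trend removed. Ace (3.21), Treml4 (1.27) and Cd300e (1.13) were still 2-fold higher with the trend removed, when 5.14% of all genes tested were, whereas Spn (0.97) fell just short. Spn was likewise 0.97 with quantile normalization. At 3-fold, as deposited, Ace and Treml4 were higher, 2 of 9, against 2.07% of genes. Pglyrp1 became 0.38 and Pou2f2 0.20. Nr4a1 (-0.29), Cd9 (-0.42) and Eno3 (-0.52) were then lower on the control Esam(lo) array, so their direction between the control arrays depends on the scaling.

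**Figure D2:**
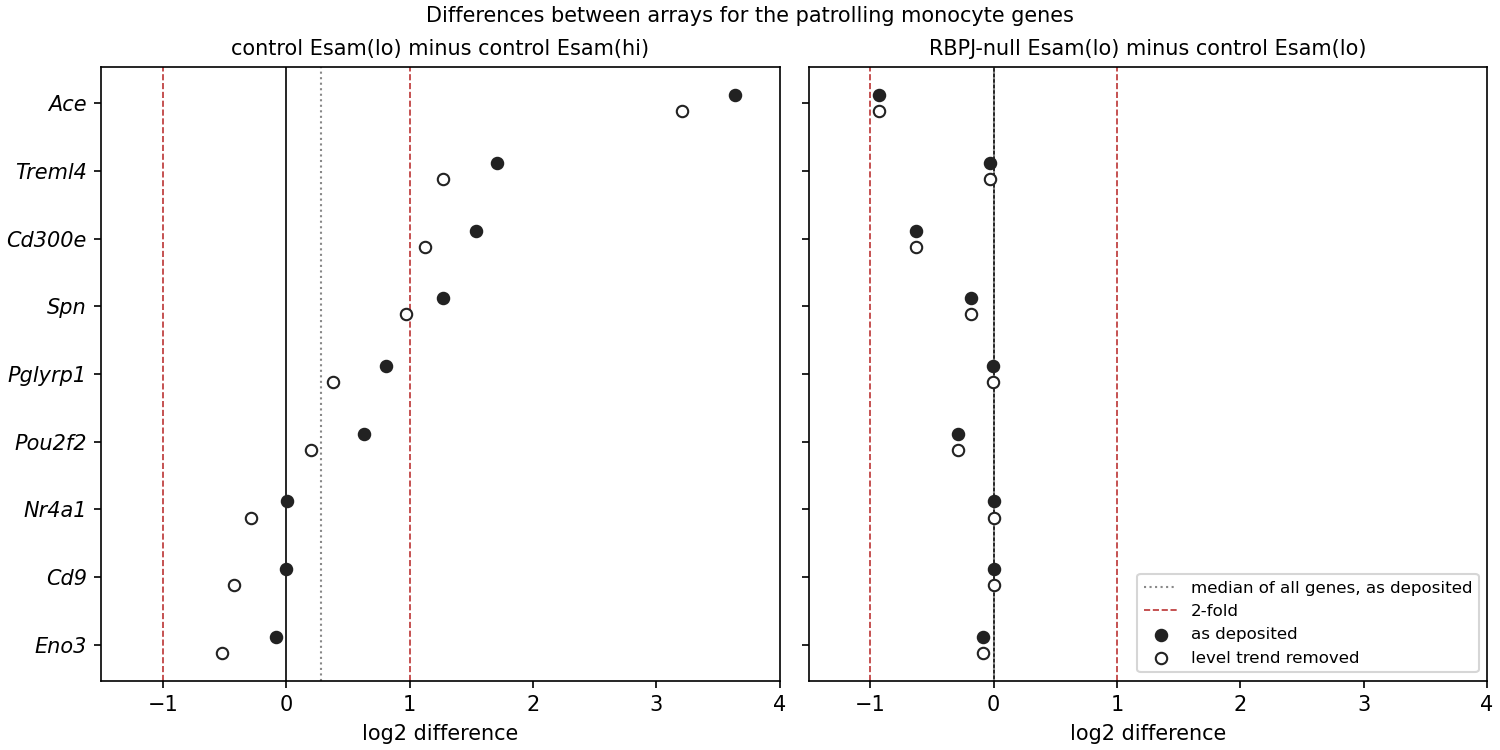
Log2 differences (x axis) of the 9 genes (y axis) for control Esam(lo) minus control Esam(hi) on the left and RBPJnull minus control Esam(lo) on the right, as deposited (filled) and with the level trend removed (open), 1 array per group. On the left removing the trend moves each gene toward lower values and Spn across the 2-fold line; on the right each gene's filled and open points have nearly the same difference, and Ace lies at -0.93.

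Between the arrays of Esam(lo) cells, RBPJnull minus control, none of the 9 genes was called, against 0.0746% of 9381 genes called higher and 0.192% called lower. Of the 9, 7 had lower values on the RBPJnull array, none had a higher value, and Nr4a1 and Cd9 were tied; the median was -0.09, with 0 over all genes. The 7 were not alike in size. Ace differed by -0.93 (1.91-fold lower), a value that 21 of the 9381 genes went below, and Cd300e by -0.63, which 43 genes went below. These 2 genes were past 1.5-fold lower, as were 0.512% of the genes tested. Pou2f2 (-0.29) came next, with 199 genes below it, followed by Spn (-0.18), Eno3 (-0.09), Treml4 (-0.03) and Pglyrp1 (-0.005). The standard deviation of this difference over all genes was 0.15, which is a spread over genes and not an error between replicates. With median centring the signs of Nr4a1, Cd9 and Pglyrp1 were positive, each by less than 0.01, and the other 6 kept a negative value under every scaling tried.

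Against the control Esam(hi) array, the RBPJnull array had 3 of 9 genes called higher, Ace (2.71), Treml4 (1.68) and Spn (1.09), and none lower, where 12.9% of 9319 genes were called higher and 1.18% lower (1204 and 110 genes, or 568 and 223 with the trend removed and 536 and 324 after quantile normalization). Cd300e differed by 0.91 and was past 2-fold with median centring (1.03), but 0.53 under trend removal and 0.46 when quantile normalized. With the trend removed Ace (2.31) and Treml4 (1.24) were still called and Spn was not (0.81), when 6.1% of the genes tested were called higher. At 1.5-fold, 5 of 9 were called higher, against 32.4% of genes. This comparison and the previous ones share arrays and are not separate evidence.

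The place of the RBPJnull array between the controls was written as a position, 0 at the control Esam(lo) and 1 at the control Esam(hi) value, for the 4 genes called between the controls. Treml4 stood at 0.02 and Spn at 0.14, near the control Esam(lo) array. Ace stood at 0.26 and Cd300e at 0.41. For the 1067 genes called higher on the control Esam(lo) array, the median position was -0.01, with a 5th percentile of -0.23 and a 95th percentile of 0.19. The control Esam(lo) array enters both terms of a position.

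Other genes of patrolling monocytes, from a list that does not include the 9, were divided too. Of 22 listed, 18 were on the array as single genes; all 18 were above background on the control Esam(lo) and 14 on the Esam(hi) array. Of these, 8 were called higher in control Esam(lo) cells and none lower (median 0.70), and 6 were called with the trend removed (median 0.34). They include the adhesion receptor gene Adgre4 (6.74, 10.53 and 10.45), at least 10.3-fold higher, the lectin gene Clec4a3 (6.69, 10.13 and 10.30), at least 7.80-fold, and Fcgr4, an activating receptor for IgG (5.70, 8.60 and 8.44), at least 2.70-fold. These 3 were below background in Esam(hi) cells, so their folds are lower bounds and have no order. The adhesion molecule gene Ceacam1 (8.44, 10.48 and 10.30) was 4.12-fold higher. The scavenger receptor gene Cd36 (6.004, 7.70 and 7.83), the lectin gene Clec4a1 (9.33, 11.05 and 11.05), Cx3cr1 and the integrin gene Itgal (9.31, 10.55 and 10.15) complete the 8. Cd36 was also below background in Esam(hi) cells, and against that background its fold is at least 1.45. Cx3cr1 (0.84) and Itgal (0.81) were no longer 2-fold apart with the trend removed. Cx3cr1 is no independent entry, since its reporter was part of the sort.

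The genes of that list with the highest mean levels among those not called were Stap1 (11.23, 11.28 and 11.48), Cd274, which encodes the checkpoint ligand PD-L1 (10.85, 10.54 and 10.09), the transcription factor gene Klf2 (10.13, 10.13 and 10.01) and Dusp16 (10.08 on all 3 arrays at 2 decimals). Cd274 had its lowest value in RBPJnull cells, past 2-fold below Esam(hi) cells with the trend removed (-1.18). On the RBPJnull array none of the 18 was called against control Esam(lo) cells (median -0.09). Hes1, also a Notch target, had the lowest difference there at -0.75 (8.66 and 7.91), and S1pr5, a receptor for exit of patrolling monocytes from bone marrow, differed by -0.43 (8.46 and 8.03); both are named after their values were seen.

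Genes of classical monocytes were higher on the control Esam(lo) array as well. Of 17 on the array, all above background in control Esam(lo) cells and 11 in Esam(hi) cells, 12 were called higher and none lower, with a median of 1.33, and 10 were called with the trend removed. They include Ccr2, the receptor that draws monocytes from bone marrow (6.32, 9.64 and 9.84), Lyz2, the macrophage lysozyme (9.97, 13.06 and 13.20) and Plac8 (8.89, 10.51 and 10.15). Of those called, Ccr2, F13a1, Cd14 and Mgst1 were below background in Esam(hi) cells. The folds of Ccr2, F13a1 and Cd14 are lower bounds. Mgst1 (5.73, 7.06 and 7.06) has no fold, since its Esam(lo) value lies below the Esam(hi) background. Itgam, also called, encodes CD11b, which was part of the sort. The list is not restricted to classical monocytes. Csf1r, the receptor of the macrophage growth factor (8.62, 11.67 and 11.31), was among those called. Irf4 and Cd177, neither of them called, also stand on the lists of classical DC and neutrophil genes. Ly6c1 and Ly6c2, the defining genes of classical monocytes, share probe sets and were not used. Classical monocyte genes did not have lower values on the RBPJnull than on the control Esam(lo) array on balance: 7 were higher, 6 lower and 4 tied, with a median of 0. Chil3 (0.52) and F13a1 (0.51), both expressed by classical monocytes, were the farthest above. Plac8 (-0.36) and Csf1r (-0.36) were the farthest below. Whether the lists differ from each other was not tested.

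**Figure D3:**
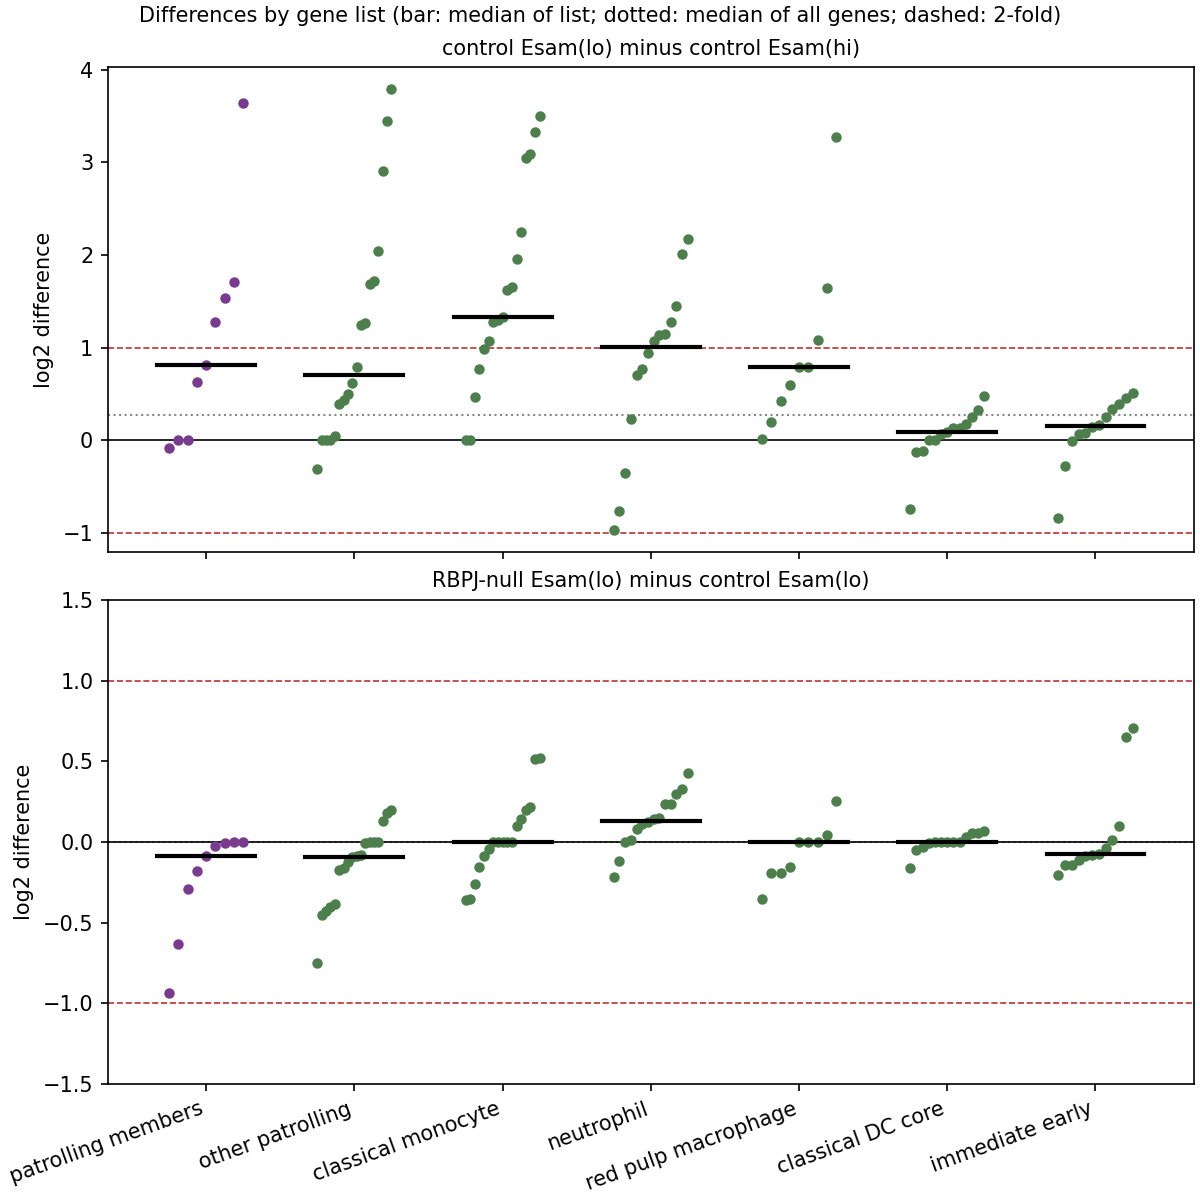
Log2 differences (y axis, with a narrower range in the lower panel) for 7 gene lists (x axis) in control Esam(lo) minus control Esam(hi), above, and RBPJnull minus control Esam(lo), below; each point is a gene above background on 1 of the arrays compared, the bar is the list's median, and each group has 1 array. Above, the medians are 0.81 for the 9 members and 1.33 for classical monocyte genes, against 0.28 for all genes; below, the members' median is -0.09.

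Markers of some other cells were higher in Esam(lo) cells too. Of 15 neutrophil genes, which bear on Pglyrp1, 14 were above background on a control array and 7 were called higher in control Esam(lo) cells (4 with the trend removed), with S100a8 at 8.35, 10.53 and 10.65 and Ngp at 11.84, 12.97 and 13.08. The list was not uniform: 3 of the 14 were lower in control Esam(lo) cells, Mpo (9.28, 8.31 and 8.74; 2-fold lower with the trend removed, -1.37), Mmp9 (7.78, 7.02 and 7.17) and Elane (8.95, 8.60 and 8.74). The summed unlogged level of the 15 was 9885, 21319 and 23145. Cxcr2, a defining neutrophil receptor, was below background on all 3, and Ly6g read 6.97, 7.67 and 7.97. Of 11 red pulp macrophage genes, 9 were above background on a control array. As deposited, all 9 had higher values in control Esam(lo) cells (median 0.79, or 0.62 with the trend removed). For Vcam1 (0.01) and Adgre1 (0.20) the difference was smaller than the median of all genes (0.28). Both turned negative with the trend removed (-0.02 and -0.22). Called higher were 3 (2 with the trend removed): Hmox1 (7.50, 8.59 and 8.40), C1qb (7.42, 9.06 and 9.06) and Hpgd. Hpgd read 6.63, 9.90 and 9.55, with the Esam(hi) value below background. The summed level of the 11 was 2582, 4522 and 4327, and Cd5l and Slc40a1 were below background throughout. Of 8 natural killer genes, 3 were above background on a control array and 2 were called higher (1 with the trend removed). Klrk1 (6.56, 8.74 and 8.60) was below background in Esam(hi) cells. Klrd1 (9.46, 10.60 and 10.60) was no longer 2-fold apart with the trend removed (0.70). Nkg7 was tied at 7.47 on all 3 arrays. Ncr1, Klrb1c, Gzma, Prf1 and Eomes were below background throughout. The summed level of the 8 was 1220, 2376 and 2339. Platelet markers, which bear on Cd9, had none called, with summed levels of 869, 844 and 842 for the 7 on the array. Of these, Gp9, Gp5, Pf4 and Ppbp were below background on all 3 arrays. Itgb3 (7.97, 8.53 and 8.53) and Treml1 were above background on all 3. Itga2b (7.22, 6.59 and 6.72) was above it on the Esam(hi) array alone. Itgb3 was higher in Esam(lo) cells, and Treml1 and Itga2b were lower. The part of these cells in the differences of the 9 genes was not tested. In RNA from a sorted population, more cells of a type and more RNA per cell cannot be told apart.

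The genes whose 3 values, each centred on the gene's own mean, lay nearest to those of the 4 called members were found among 9354 protein-coding genes above background on at least 1 array, by Euclidean distance on the log2 scale. Ace had no gene within 0.25. Its nearest was Hpgd, an enzyme of prostaglandin breakdown (distance 0.42), then Csf1r, the receptor of the macrophage growth factor (0.48), and Tlr8, a sensor of RNA (0.56). Hpgd and Tlr8 read 6.63 and 5.60 in Esam(hi) cells, below background, so their distances and places in this order are not settled. Cd300e had 19 genes within 0.25, led by the lipid transfer gene Pltp (0.09), the matrix gene Tgfbi (0.12) and the integrin gene Itgb5 (0.15), whose Esam(hi) value of 6.84 was also below background. Pltp read 8.56, 10.21 and 9.47, intermediate on the RBPJnull array like Cd300e. The shapes of Treml4 and Spn were shared by many more genes, 213 and 806 within 0.25, with Esyt1, Tpcn1 and Mrpl23 nearest to Treml4 and P2ry13, Fuca2 and Ipo7 nearest to Spn. With 3 arrays such a likeness rests on few values.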

How the data were processed

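RNA was measured on 3 arrays, 1 for each sorted population. Per the submitters' processing notes, the deposited log2 values, 1 per probe set and array, were made by the authors with RMA in Affymetrix Expression Console; versions: not given in the sources used here. Their quartiles differ between arrays. The table holds 35556 probe sets. GEO's platform annotation names 21789 with 1 gene, 1621 with several and 12146 with none; 21698 were found by Entrez number in a RefSeq gene table of GRCm38.p6. Of several probe sets for a gene, the one with the highest mean was kept. Python 3.11.15, pandas 2.3.3 and statsmodels 0.14.6 (lowess, span 0.3, over all genes) were used. With 1 array per group no test was made, so precision is limited by the number of arrays. The members and the 19 lists were chosen with earlier results of these data known, so their directions are not independent evidence. Named genes were all members, list genes called between the control arrays, up to 4 others a list by highest mean level, and the 3 nearest genes of each called member; marker genes of other cell types illustrate their lists. Alternatives were the filter on dim genes (none, or the 75th percentile), median centring, quantile normalization, trend removal, thresholds of 1.5-fold and 3-fold, and the mean of probe sets. Counting was tested on simulated data with no noise and no level trend between the arrays compared. This checks the code alone and says nothing about precision.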

Additional observations from a re-analysis of the deposited data

How the results depend on the processing

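A difference or median was taken as moved when it changed by more than 0.15, the standard deviation over genes between the Esam(lo) arrays. For a position, this limit was divided by the size of the gene's difference between the control arrays. A count was taken as moved when it changed by over 1.5 times. The 4 members called between the control arrays became 2 (Ace and Treml4) at a 3-fold threshold (2.07% of all genes). At 1.5-fold, 2 members (Ace and Cd300e) were called lower on the RBPJnull than on the control Esam(lo) array (0.512% of all genes), and 5 higher than on the control Esam(hi) array (32.4%). The members' median, control Esam(lo) minus Esam(hi), was 0.30 with quantile normalization and 0.38 with the trend removed, when the median of all genes was -0.03 and 0.05. For RBPJnull minus control Esam(hi) it was 0.29 and 0.37. The position of the RBPJnull array for Cd300e was 0.58 with quantile normalization and 0.56 with the trend removed. The other 69 values of these counts, medians and positions under the alternatives stayed within those limits. No called gene changed direction. The means of probe sets equal the values used, since each member has 1 probe set. Precision is limited by 1 array per group, and Ace on the Esam(hi) array lies close to background.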
